A study of Homo sapiens with 8 samples.

Results

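BCL2, BCL2L1, MCL1 and BCL2L11 are genes of the BCL2 family, which sets the threshold for mitochondrial cell death. The regions described here are the ChIP-seq peaks of 7 proteins that overlap a window around each of these genes: chromosome 18, 60780000 to 60997000, for BCL2; chromosome 20, 30245000 to 30320000, for BCL2L1; chromosome 1, 150537000 to 150562000, for MCL1; and chromosome 2, 111868000 to 111936000, for BCL2L11, all on build hg19. The windows cover 385 kb and were set by position alone, though the loci were chosen with earlier results of these data known. The windows held 72 of the 159806 peaks in the 7 lists. These 72 peaks merged into 33 of the 74123 regions formed by joining peaks that overlap by at least 1 bp. The cells were 697, an established human pre-B leukaemia line, and the labels name no treatment or genetic change. There was 1 library for each antibody (IKAROS, AIOLOS, MTA2, Mi2, HDAC2, OCAB and OCT2) and 1 input library, genomic DNA without an antibody. With no replicate library there is no spread to test a difference against, so no p-value between loci or proteins is given, and every interval covers counting error of 1 library only.

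BCL2 protein, BCL-XL (the long product of BCL2L1) and MCL1 hold back cell death by binding the effectors BAX and BAK, while BIM, the product of BCL2L11, is a BH3-only protein that opposes them. Developing B cells depend on the balance of these proteins: pre-B cells that do not receive survival signals die in a BIM-dependent way, and MCL1 and BCL-XL support early B-lineage cells. IKAROS and AIOLOS are zinc-finger factors that restrain growth and promote differentiation of pre-B cells. NuRD, a complex that moves nucleosomes and removes acetyl groups from histones, is represented by its subunits MTA2, Mi2 (the remodelling ATPase) and HDAC2 (a deacetylase). OCT2 is a POU factor that recognises octamer DNA, and OCAB is a B-lineage coactivator with no strong DNA binding of its own that docks on octamer-bound POU factors.

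Peak height is the deposited number of tags (aligned reads) in a peak per 10 M tags of the library. Depth recovered from the lists was 23.4 M tags for IKAROS, 16.1 M for AIOLOS, 22.8 M for MTA2, 18.5 M for Mi2, 10.9 M for HDAC2, 17.6 M for OCAB and 18.3 M for OCT2. Heights of different antibodies are not on a common scale, so each peak is also given its rank, the percent of its own list that is at or below it. The HDAC2 list came from the shallowest library, and its largest deposited p-value over input, 9.5e-05, was above that of each other list (at most 8.92e-10), so a missing HDAC2 peak cannot be read like a missing IKAROS peak. The HDAC2 list also names an input data set of its own in its header, and whether that is the input library of this series is not settled here. Regions are numbered within each window from the low-coordinate end. BCL2 and BCL2L1 lie on the minus strand per RefSeq, so they begin near the high-coordinate end of their windows, and BCL2L11 lies on the plus strand. In RefSeq the nearest protein-coding neighbours are PHLPP1 and KDSR for BCL2, COX4I2 and TPX2 for BCL2L1, ADAMTSL4 and ENSA for MCL1, and ACOXL before BCL2L11; whether a window reaches into a neighbour was not determined. Gene annotation of build hg19 was not used here, so distances are given to the window ends and not to start sites.

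No genome of build hg19 was used here, so the letters under the peaks are not printed. RefSeq promoter sequences of build GRCh38.p14 show what lies at the annotated starts, 250 bases before to 50 bases after. They are shown for BCL2, BCL2L1 and BCL2L11, each with peaks toward the window end at which it begins, and are on another build than the peaks. MCL1 was not searched. The letters searched were the octamer ATGCAAAT, through which OCT2 and OCAB can bind, and TGGGAA and its inner part GGGAA, the core bound by IKAROS and AIOLOS, each on both strands. GGGAA was added after the lists had been seen, and every TGGGAA also counts as a GGGAA. Capitals mark GGGAA or its complement TTCCC.
BCL2 (chr18:63319720-63320019, minus strand): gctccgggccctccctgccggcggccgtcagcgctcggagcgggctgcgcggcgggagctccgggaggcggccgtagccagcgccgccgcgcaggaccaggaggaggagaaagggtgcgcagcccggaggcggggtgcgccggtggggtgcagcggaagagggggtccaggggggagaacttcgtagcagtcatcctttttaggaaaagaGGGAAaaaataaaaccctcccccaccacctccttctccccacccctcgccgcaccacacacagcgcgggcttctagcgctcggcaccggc
BCL2L1 (chr20:31723914-31724213, minus strand): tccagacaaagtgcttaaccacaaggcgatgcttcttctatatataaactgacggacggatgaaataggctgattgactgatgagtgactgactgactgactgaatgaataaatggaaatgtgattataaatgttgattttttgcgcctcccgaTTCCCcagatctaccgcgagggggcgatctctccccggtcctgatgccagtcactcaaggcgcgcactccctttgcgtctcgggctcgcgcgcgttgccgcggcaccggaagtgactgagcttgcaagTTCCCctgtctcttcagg
BCL2L11 (chr2:111120664-111120963, plus strand): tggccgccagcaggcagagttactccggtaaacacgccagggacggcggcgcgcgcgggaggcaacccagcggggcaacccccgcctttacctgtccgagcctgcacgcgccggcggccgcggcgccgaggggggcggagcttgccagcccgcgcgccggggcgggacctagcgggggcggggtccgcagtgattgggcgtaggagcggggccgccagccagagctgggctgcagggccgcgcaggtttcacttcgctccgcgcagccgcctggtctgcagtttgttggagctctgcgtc
None of these sequences holds ATGCAAAT or TGGGAA, and neither does a second BCL2L1 start in the table. ATGCAAAT is in 1.77% of the 35116 promoters of this length and TGGGAA in 24.0%. GGGAA, found in 65.0% of them, occurs once in the BCL2 sequence, 40 bases before the start. It occurs in the BCL2L1 sequence 96 bases before the start and again from base 33 of the transcript, both on the other strand. The BCL2L11 sequence is 74.7% G and C and has no match. Among other BCL2 family genes, 10 of a list of 13 had a promoter entry, and 3 of these (BAK1, BID and BMF) held TGGGAA while 0 held the octamer. The peaks of these other genes were not counted, since no hg19 positions for them were used.

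The 4 windows differed in length, from 25 to 217 kb, and in the peaks they held. BCL2, with the longest window, had the most peaks, 33 in 18 regions. Most were of middling height, and 9 of the 18 regions held 1 protein alone, where 44.7% of all merged regions did. BCL2L1 had 25 peaks in 8 regions, and 3 regions in its low-coordinate part carried high peaks of 4, 5 and 6 proteins. MCL1 had 5 peaks in 2 neighbouring regions, and BCL2L11 had 9 peaks in 5 regions, all of IKAROS, AIOLOS, MTA2, OCAB or OCT2. Mi2 and HDAC2 had no peak at MCL1 or BCL2L11. Over the genome their lists held 0.35 and 0.547 peaks per 100 kb, so windows of 25 and 68 kb would often hold none. No region of any locus held all 7 proteins, where 0.65% of all merged regions did.

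**Figure D1:**
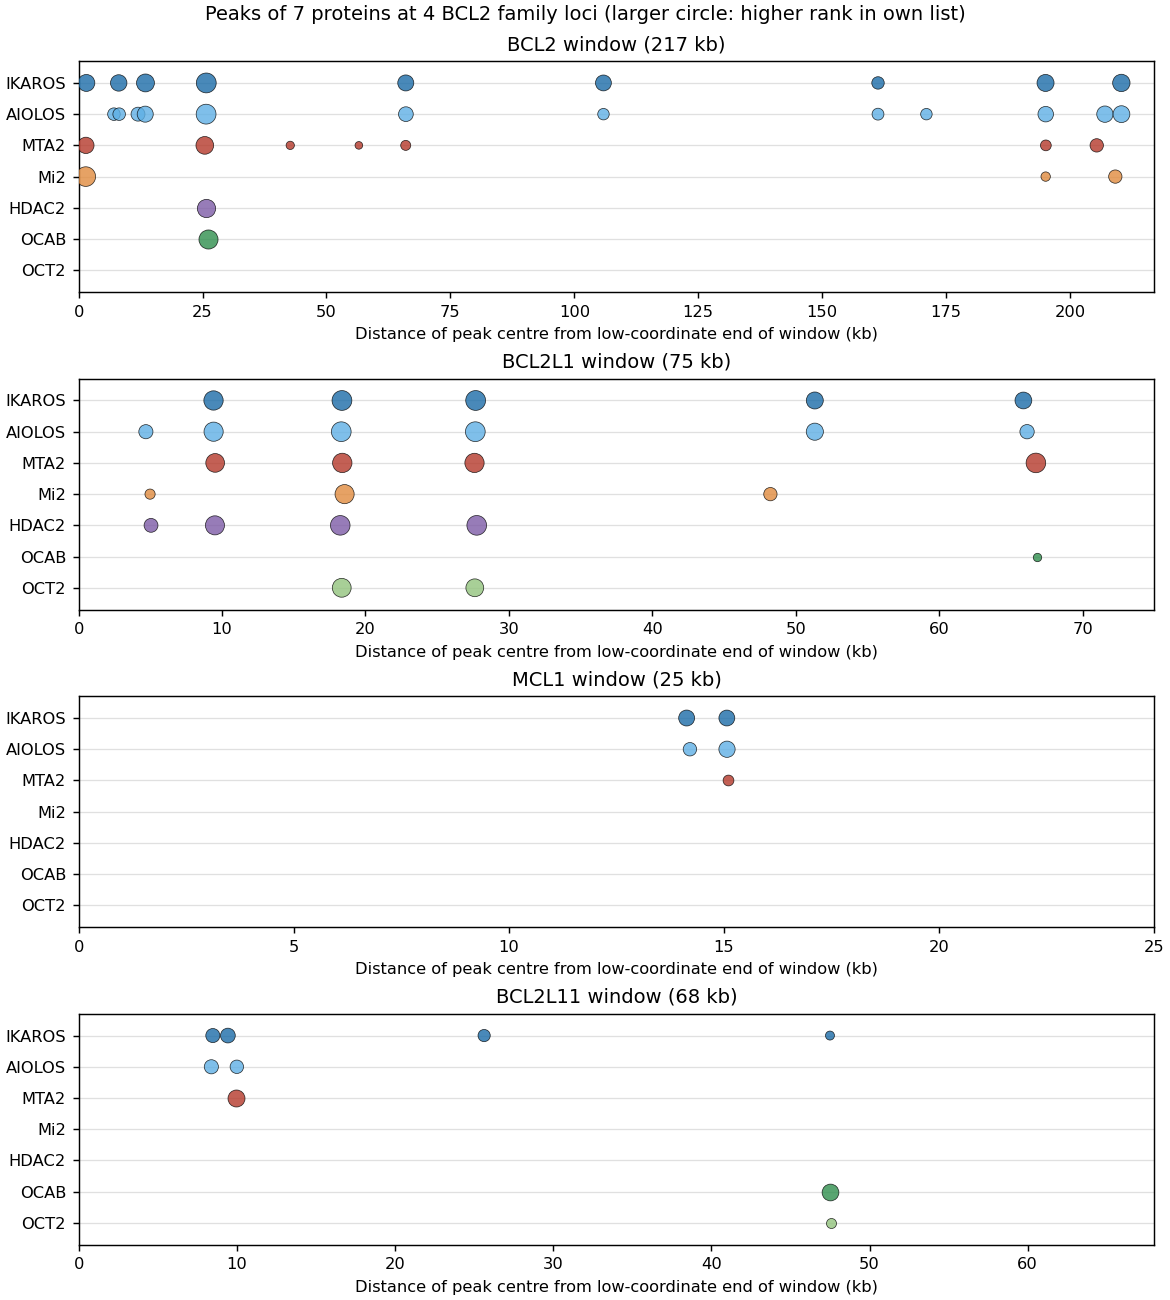
Positions of the 72 peaks: the x axis is the distance of the peak centre from the low-coordinate end of each window in kb, each row is 1 antibody library, and a larger circle is a higher rank of the peak within its own list. The 3 columns of large circles at 9.46, 18.4 and 27.7 kb of the BCL2L1 window hold 4, 6 and 5 proteins, while the 5 peaks at MCL1 form 2 clusters with 593 bp between them.

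IKAROS was in 20 of the 33 regions, where 72.8% of all merged regions held it, and AIOLOS was in 22, against 51.4%. They were together in 16 regions, against 44.4% over all regions. MTA2 was in 13 of the 33 (38.8% over all), Mi2 in 6 (13.9%), HDAC2 in 5 (21.8%), OCAB in 3 (5.99%) and OCT2 in 3 (11.0%). Regions with 4 or more proteins numbered 5, where 16.8% of all regions had as many, and 12 held 1 protein, against 44.7%. These counts are small and most lie near the shares over all regions, so nothing is read from them about the BCL2 family as a group.

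Peaks lay more densely in these windows than over the genome. Per 100 kb, all lists together had 33.3 peaks at BCL2L1, 20.0 at MCL1, 15.2 at BCL2 and 13.2 at BCL2L11, against 5.42 over the span that peaks cover on chromosomes 1 to 22 and X. That span includes gene-poor stretches, so windows drawn on genes could be denser for that reason, which was not tested. Of 39242 windows of 75 kb laid end to end over the same span, 4.53% held at least 8 merged regions, as the BCL2L1 window did, and 2.19% held at least 3 regions of 4 or more proteins. At least 18 regions, the BCL2 count, were in 5.51% of windows of 217 kb, and at least 2 regions of 4 or more proteins in 22.4%. The corresponding shares were 12.4% for BCL2L11 (at least 5 regions in 68 kb) and 16.2% for MCL1 (at least 2 regions in 25 kb). As the loci were chosen with earlier results of these data known, these shares are description only.

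Density by protein was highest at BCL2L1 for HDAC2, Mi2, MTA2 and OCT2. HDAC2 had 5.33 peaks per 100 kb at BCL2L1 (4 peaks), 0.461 at BCL2 (1 peak) and none at MCL1 or BCL2L11, against 0.547 over the genome. Mi2 had 4.0 per 100 kb at BCL2L1 (3 peaks) and 1.38 at BCL2 (3 peaks), against 0.35. OCT2 had 2 peaks at BCL2L1, 1 at BCL2L11 and 0 at BCL2 in 217 kb, where its genome-wide density was 0.276 per 100 kb. OCAB had 1 peak each at BCL2, BCL2L1 and BCL2L11. IKAROS was less uneven, from 4.15 per 100 kb at BCL2 to 8.0 at MCL1, against 1.83. AIOLOS ran from 2.94 at BCL2L11 to 8.0 at BCL2L1 and MCL1, against 1.29. With 0 to 12 peaks behind each value, neighbouring values in these orders cannot be told apart.

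**Figure D2:**
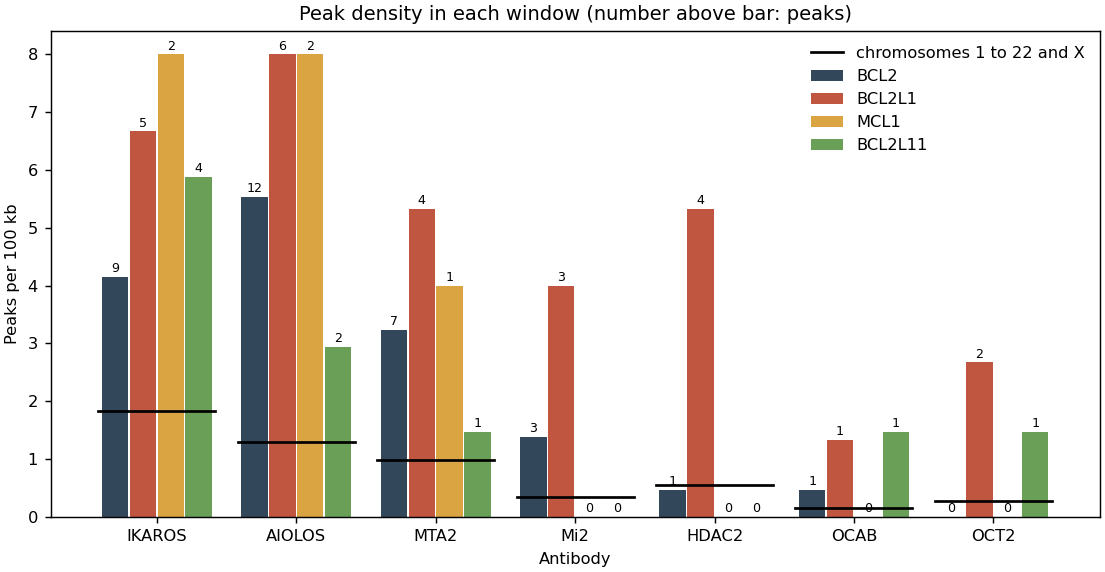
Peaks per 100 kb (y axis) for each antibody (x axis) in the 4 windows, coloured by locus, with the number of peaks above each bar; the black line is the density of the same list over chromosomes 1 to 22 and X. The BCL2L1 bars exceed the line for all 7 antibodies, and the MCL1 bars are at 0 for Mi2, HDAC2, OCAB and OCT2.

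BCL2L1, which encodes the survival protein BCL-XL, had the largest share of its peaks near the top of their lists. The highest IKAROS, AIOLOS, Mi2 and OCAB peaks of the 4 windows were at BCL2. Of its 25 peaks, 13 were among the highest 10% of their own list, against 4 of 33 at BCL2 and none of 5 at MCL1 or of 9 at BCL2L11. Over all lists 10.1% of peaks fall there, ties included. The 13 lay in BCL2L1 regions 2, 3, 4 and 8 alone, and the 4 in BCL2 regions 1 and 7. Peaks of different antibodies in the same region share a site, so these counts and the ranks below are not of separate sites. The median rank of its peaks was 90.7%, against 59.3% at BCL2, 59.3% at MCL1 and 44.6% at BCL2L11. Higher than their list's median were 19 of 25 peaks at BCL2L1, 18 of 33 at BCL2, 3 of 5 at MCL1 and 2 of 9 at BCL2L11, where 48.2% of all peaks are.

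BCL2L1 region 3 (chromosome 20, 30263082 to 30263716) held 6 proteins, all but OCAB. Regions with 6 or more proteins make up 2.96% of all merged regions. The IKAROS height was 183.5 (95% Poisson interval 166.6 to 201.7), exceeded by 1.56% of the IKAROS list, and the AIOLOS height was 141.3 (123.5 to 160.9), exceeded by 2.45%. Of the NuRD subunits, MTA2 stood at 44.2 (36.01 to 53.72), HDAC2 at 32.1 (22.34 to 44.6) and Mi2 at 25.4 (18.66 to 33.77). The OCT2 height of 28.4 (21.65 to 37.81) was exceeded by 11.8% of its list. By height, all 6 peaks were thus in the upper part of their lists, with ranks from 88.19% to 98.44%. Ranked by fold over input, they ran from 4.901% for Mi2 to 91.35% for IKAROS. Region 3 was the only one of the 33 regions to hold MTA2, Mi2 and HDAC2 together, which 3.92% of all regions do. Its Mi2 peak, 4.91-fold over input, would not pass a limit of 8-fold. The centres of OCT2, IKAROS and MTA2 lay within 39 bp, and the AIOLOS centre was 32 bp from that of OCT2. Mi2 lay to the side, 161 bp from MTA2 and 302 bp from HDAC2.

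BCL2L1 region 4 (chromosome 20, 30272477 to 30272917), 8.76 kb further on, held the same proteins without Mi2. Its IKAROS height was 204.4 (186.6 to 223.7) and its AIOLOS height 150.6 (132.8 to 171.5). MTA2 stood at 41.6 (33.64 to 50.83), HDAC2 at 34.8 (24.64 to 47.79) and OCT2 at 21.3 (15.13 to 29.08). The intervals of regions 3 and 4 overlapped for each of the 5 proteins they had in common. HDAC2 reached its highest value of the 4 windows here, and 2.84% of its list was higher.

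BCL2L1 region 2 (chromosome 20, 30254267 to 30254661) held IKAROS, AIOLOS, MTA2 and HDAC2 and no OCT2. Its IKAROS height of 89.8 (78.09 to 102.8) and AIOLOS height of 79.1 (66.47 to 94.73) lay below those of regions 3 and 4 with intervals that did not overlap. MTA2 was at 32.0 (25.05 to 40.18) and HDAC2 at 25.7 (17.05 to 37.08), where the intervals did overlap. IKAROS and AIOLOS centres were 6 bp apart and those of HDAC2 and MTA2 15 bp apart, while these pairs lay 93 to 114 bp from each other.

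Input signal was also high at these regions. In regions 2, 3 and 4, the deposited input values lay between the 77.73% and 99.19% ranks of input within their lists. Input exceeded the list's median in 18 of the 25 BCL2L1 peaks, 16 of 33 at BCL2, 2 of 5 at MCL1 and 5 of 9 at BCL2L11, against 46.1% of all peaks. Without the HDAC2 list, the BCL2L1 count was 15 of 21. Ranked by fold over input instead of height, the median rank at BCL2L1 was 61.9%, against 90.7% by height. By fold the median rank was 53.9% at BCL2, 48.8% at MCL1 and 35.5% at BCL2L11, so the gap between BCL2L1 and BCL2 was narrower than by height. With the input subtracted from the height, BCL2L1 stood at 87.4% and BCL2 at 58.8%. Folds over input in these regions still ran from 4.91 for Mi2 in region 3 to 62.06 for IKAROS in region 4.

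Toward the window end nearer the start of BCL2L1, the pattern was another. Region 8 (chromosome 20, 30311625 to 30311960, centred 8.21 kb inside the window) held MTA2 and OCAB alone. Its MTA2 height of 52.1 (43.15 to 62.33) was the highest MTA2 value of the 4 windows and was exceeded by 3.94% of the MTA2 list. OCAB, with a height of 9.12 (5.211 to 14.8) from 16 tags, was among the lowest of its list, with 91.2% higher, and its centre was 77 bp from that of MTA2. No IKAROS or AIOLOS peak overlapped it. The nearest AIOLOS peak ended 362 bp away in region 7 (30310742 to 30311262), and the IKAROS peak of that region ended further off. Their heights were 30.8 (24.1 to 38.79) for IKAROS and 21.8 (15.17 to 30.3) for AIOLOS, with centres 256 bp apart. MTA2 height in region 8 was 1.18 times that in region 3 (exact interval of the ratio of tags 0.896 to 1.55) and 1.63 times that in region 2 (1.21 to 2.21). So the highest MTA2 peak of BCL2L1 lay without IKAROS, HDAC2 or Mi2, at a height that counting error does not separate from region 3.

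The other BCL2L1 regions were lower. Region 1 (30249558 to 30250204) joined an AIOLOS peak of height 21.2, a Mi2 peak of 10.8 and an HDAC2 peak of 12.8. The AIOLOS peak there overlapped Mi2 by 11 bp and HDAC2 not at all. Region 5 (30293063 to 30293409) was a Mi2 peak of 13.0 (8.307 to 19.29) without any other protein, and region 6 (30296196 to 30296468) held IKAROS at 32.5 and AIOLOS at 36.1. Between regions 4 and 5 lay 20.1 kb with no peak of any list.

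**Figure D3:**
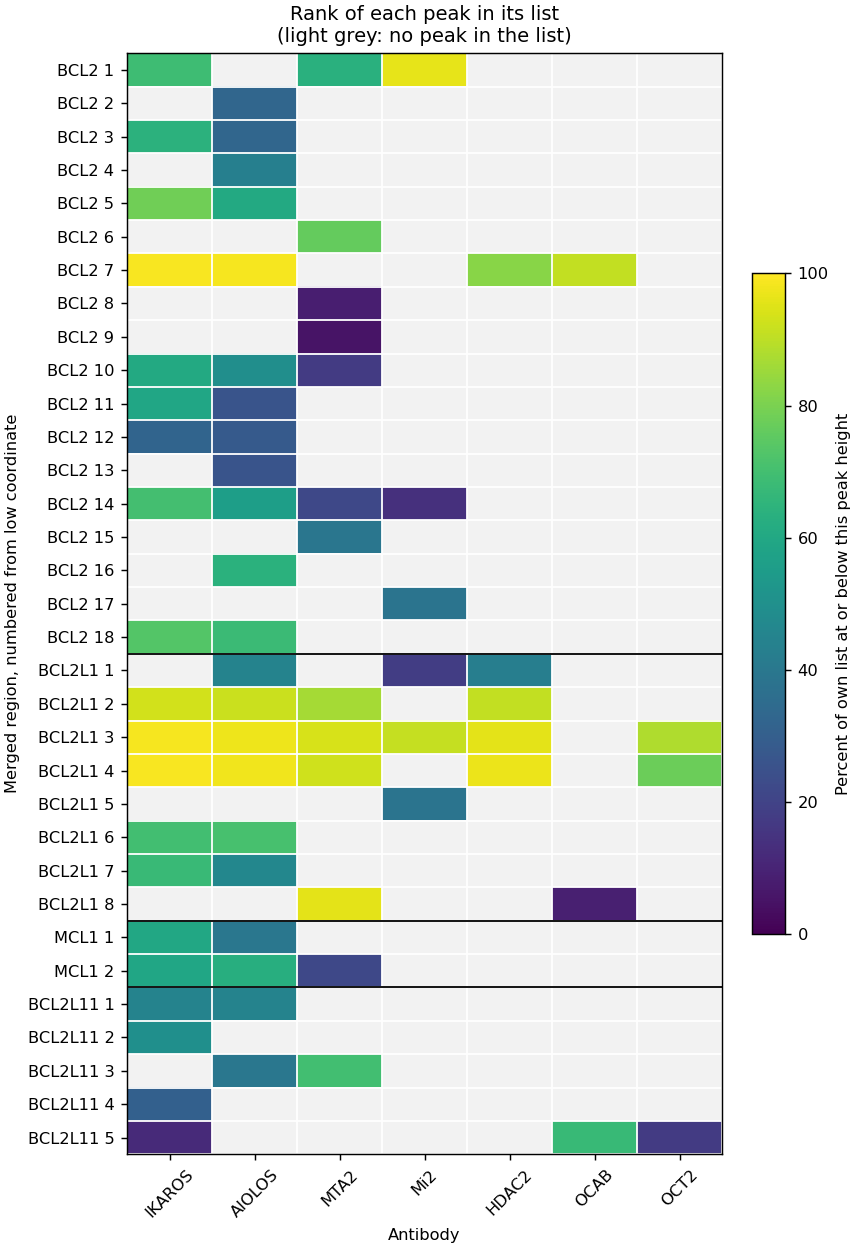
Merged regions in rows, numbered from the low-coordinate end of each window, and antibodies in columns; colour gives the percent of the protein's own list at or below the height of the peak, and light grey marks no peak. Yellow rows, where most peaks are near the top of their lists, are BCL2 region 7 and BCL2L1 regions 2, 3 and 4, and no row of MCL1 or BCL2L11 is of that kind.

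BCL2, the founding survival gene of the family, had 12 AIOLOS peaks, 9 of IKAROS, 7 of MTA2 and 3 of Mi2. HDAC2 and OCAB had 1 peak each, and OCT2 had none. Relative to the genome-wide density of each list, which allows for its length, AIOLOS stood at 4.28 times, Mi2 at 3.95, MTA2 at 3.31, OCAB at 3.06, IKAROS at 2.27 and HDAC2 at 0.843 times. The highest peaks were in region 7 (chromosome 18, 60805581 to 60806200), 25.89 kb from the low-coordinate end and 191.11 kb from the window end nearer the gene's start. The IKAROS height there was 220.3 (201.7 to 240.2), exceeded by 0.984% of the list, and the AIOLOS height was 191.1 (170.3 to 213.7), exceeded by 1.24%. These were the highest IKAROS and AIOLOS values of the 4 windows. Against BCL2L1 region 4, the IKAROS ratio was 1.08 (exact interval 0.949 to 1.22), which does not separate them, and the AIOLOS ratio was 1.26 (1.06 to 1.5). The next highest IKAROS peak at BCL2 itself was region 5 at 42.8 (34.81 to 52.03), a 5.15-fold difference (4.15 to 6.45).

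OCAB was present beside these factors at BCL2 region 7, with a height of 46.7 (37.16 to 57.99), the highest of the 3 OCAB peaks and exceeded by 9.3% of its list. Its centre was 322 bp from that of IKAROS and 358 bp from that of AIOLOS, and it entered the region by an overlap of 11 bp with the HDAC2 peak. HDAC2 was at 21.1 (13.36 to 31.62), centred 40 bp from IKAROS. MTA2 lay 7 bp outside the joined region, as a peak of its own (60805323 to 60805573) at 24.5 (18.52 to 31.83). With peaks merged across gaps of up to 200 bp it joined the others, and the region then held 5 proteins. With centres within 100 bp required, IKAROS, AIOLOS and HDAC2 were left. No OCT2 peak was in the BCL2 window, so the highest OCAB peak of these loci lay without OCT2.

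BCL2 region 14 (60974928 to 60975274), 21.9 kb from the window end nearer the gene's start, was the other region of 4 proteins. It held IKAROS at 32.9 (25.99 to 41.17), AIOLOS at 26.1 (18.84 to 35.34), MTA2 at 10.5 (6.731 to 15.63) and Mi2 at 10.3 (6.18 to 16.03). Its centres all lay within 64 bp. The peaks were lower than at region 7, with MTA2 and Mi2 in the lowest 21.61% and 13.76% of their lists. The deposited input of IKAROS and MTA2 was there at 0.5 tags, the lowest value their lists hold, so no fold over input is given.

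Mi2 had its highest peak of all 4 windows at BCL2 region 1 (60781258 to 60781684), close to the low-coordinate end of the window. The Mi2 height was 34.0 (26.15 to 43.55), exceeded by 3.63% of its list, beside IKAROS at 32.1 (25.24 to 40.22) and MTA2 at 19.3 (13.99 to 25.85). Against BCL2L1 region 3, the Mi2 ratio was 1.34 (exact interval 0.904 to 2.0), which does not separate them. Mi2 and MTA2 centres in BCL2 region 1 were 21 bp apart. Input was at the 97.24% rank of the Mi2 list and the 97.3% rank of the IKAROS list, and the Mi2 fold over input was 8.04. The last Mi2 peak at BCL2, region 17 (60988980 to 60989326) at 13.0 (8.307 to 19.29), held no other protein.

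MTA2 at BCL2 had 7 peaks, some of them in regions without IKAROS or AIOLOS. Under the 1 bp overlap rule, 3 of the 7 were in a region with IKAROS, where 77.0% of all MTA2 peaks are. The other 4 were in regions with neither factor, and the share of all MTA2 peaks like that was not computed. These 4 were region 6, regions 8 and 9 with the lowest heights of the window (7.88 and 7.01, from 18 and 16 tags), and region 15 (60985278 to 60985528) at 13.6 (9.219 to 19.26). Region 6 lay 7 bp from region 7, which held the high IKAROS and AIOLOS peaks, and joined it when gaps of up to 200 bp were merged. Regions 8 and 9 ranked at 8.321% and 5.442% of the MTA2 list. At BCL2L1, 3 of 4 MTA2 peaks were with IKAROS, at MCL1 1 of 1, and at BCL2L11 0 of 1.

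Of the 12 AIOLOS peaks at BCL2, 8 were in a region with IKAROS, and over the 4 loci 16 of 22 were, where 86.5% of all AIOLOS peaks are. Conversely 16 of 20 IKAROS peaks were with AIOLOS, against 61.1%. AIOLOS heights at BCL2 outside region 7 ran from 15.6 to 33.6, and IKAROS heights from 14.1 to 42.8. Toward the window end nearer the start of BCL2 lay an AIOLOS peak without IKAROS, region 16 (60986930 to 60987186) at 30.5 (22.56 to 40.32), and then region 18 (60990234 to 60990515) with IKAROS at 36.4 and AIOLOS at 33.6. The middle of the window was sparse beside its ends. Between regions 11 and 12, 55.1 kb held no peak of any list. Over the genome there are 2.51 merged regions per 100 kb, so this gap is not read as a depletion.

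**Figure D4:**
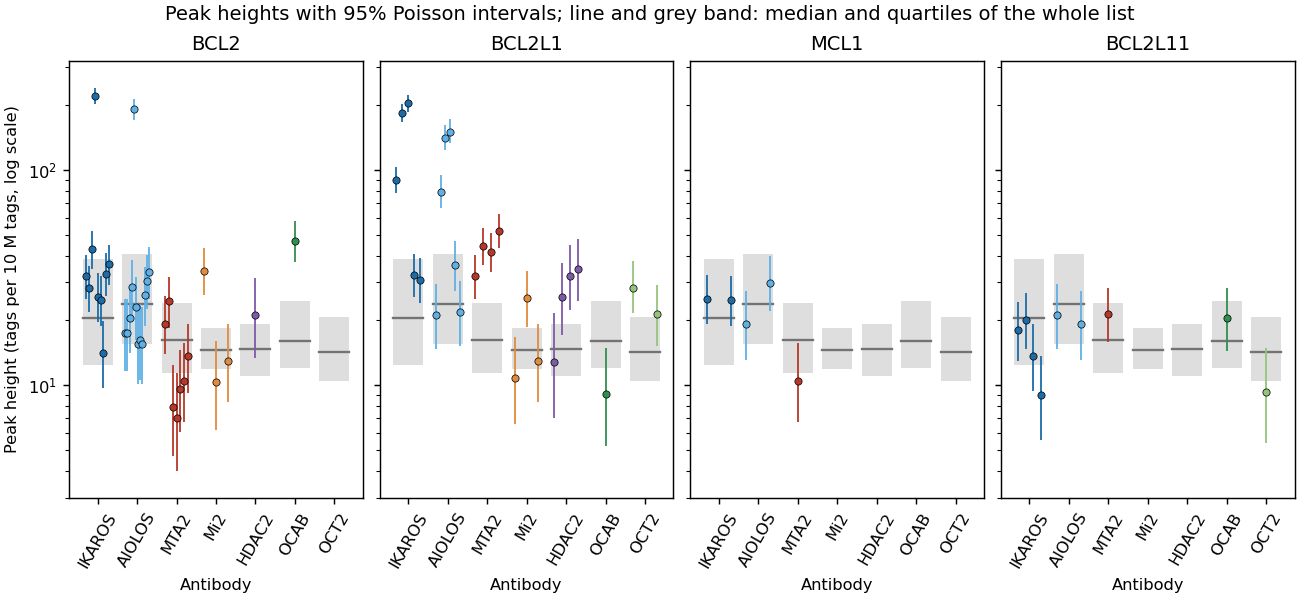
Height of every peak in tags per 10 M tags (y axis, log scale) by antibody (x axis) at the 4 loci, with 95% Poisson intervals of the tags; the grey line and band are the median and quartiles of the whole list. The highest points are IKAROS (220.3) and AIOLOS (191.1) in BCL2 and IKAROS (204.4) and AIOLOS (150.6) in BCL2L1, while MCL1 and BCL2L11 have none above 30.

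MCL1, a short-lived survival protein that B-lineage cells need at several stages, had the fewest peaks, in the shortest window (25 kb). Per 100 kb it held 20.0 peaks, more than BCL2 or BCL2L11. Its 5 peaks formed 2 regions separated by 593 bp, and both lay 9.93 to 10.83 kb from the high-coordinate end. Region 2 (chromosome 1, 150551930 to 150552207) held IKAROS at 24.8 (18.84 to 32.07), AIOLOS at 29.9 (22.03 to 39.61) and MTA2 at 10.5 (6.731 to 15.63), with all centres within 16 bp. Region 1 (150550996 to 150551336) held IKAROS at 25.2 (19.21 to 32.56) and AIOLOS at 19.3 (13.11 to 27.39). The intervals of the 2 regions overlapped for both factors. IKAROS ranked at 59.28% and 59.99% of its list, AIOLOS at 62.82% and 39.52%, and MTA2 at 21.61%, so none of the 5 was near the top of its list.

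BCL2L11, which encodes the death-promoting BIM, had a cluster of peaks toward the low-coordinate end of its window and a separate region of OCAB and OCT2. Regions 1, 2 and 3 lay 8.44 to 9.97 kb from the low-coordinate end, the end nearer the gene's start. Region 1 (chromosome 2, 111876260 to 111876618) held IKAROS at 18.0 (12.95 to 24.29) and AIOLOS at 21.2 (14.66 to 29.57). Region 2 (111877298 to 111877570) was IKAROS alone at 20.1 (14.77 to 26.74). Region 3 (111877808 to 111878127) held MTA2 at 21.5 (15.87 to 28.36) and AIOLOS at 19.3 (13.11 to 27.39). Only this MTA2 peak and the OCAB peak of region 5 were higher than the median of their lists.

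OCAB, OCT2 and IKAROS met in BCL2L11 region 5 (111915364 to 111915678), 47.52 kb into the window, and no MTA2, Mi2, HDAC2 or AIOLOS peak was there. The OCAB height was 20.5 (14.37 to 28.4), with 32.5% of its list higher. OCT2 was at 9.27 (5.402 to 14.85) from 17 tags and IKAROS at 8.98 (5.561 to 13.73) from 21 tags, with 82.7% and 88.2% of their lists higher. Their 3 centres lay within 41 bp. This was the only region of the 33 with OCAB and OCT2 together, where 2.53% of all merged regions hold both. Region 4 (111893499 to 111893771) was IKAROS alone at 13.7 (9.363 to 19.32).

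The 3 OCAB peaks thus shared a merged region with different proteins at each locus: IKAROS, AIOLOS and HDAC2 at BCL2, MTA2 at BCL2L1, and OCT2 with IKAROS at BCL2L11. At BCL2 the OCAB peak overlapped only HDAC2, by 11 bp, and not IKAROS or AIOLOS. Over all OCAB peaks, 42.3% lay in a region with OCT2 and 51.7% with MTA2, against 1 of 3 for each here. The OCAB height at BCL2 was 2.28 times that at BCL2L11 (exact interval 1.52 to 3.47) and 5.12 times that at BCL2L1 (2.98 to 9.38). OCT2 was with MTA2 at both BCL2L1 regions and without it at BCL2L11, where 73.5% of all OCT2 peaks are with MTA2. Its height at BCL2L1 region 3 was 3.12 times that at BCL2L11 (1.78 to 5.74).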

How the data were processed

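The deposited data are 7 HOMER peak lists, 1 per antibody library, on hg19; the submitters' processing notes name CASAVA 1.8.2 (also 1.4), Bowtie2 2.3.2.2 and HOMER 4.9.1. Per the file headers, HDAC2 peaks needed 4-fold over input and over the local region and a false discovery rate of 0.001; for the remaining 6 the calling limits were not given in the sources used here. The highest p-value over input deposited by the authors was 9.5e-05 for HDAC2 and at most 8.92e-10 in the other lists.

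The authors' height is a signal, tags per 10 M. Tags per peak are deposited as a count for 5 lists; the IKAROS and MTA2 files instead hold a signal the authors scaled to input depth, from which whole tags were recovered by its steps (0.909 and 0.9305 per tag). The deposited ratio is ChIP over input tags. The deposited focus fraction, score and local p-value were not used. Heights and folds are the authors' values. Ranks, merging (1 bp overlap), Poisson intervals and ratio intervals (exact binomial, 95%) were computed with Python 3.11.15, numpy 2.4.6, pandas 2.3.3 and scipy 1.17.1. Merging was tested on simulated peaks. PCR reads carry no molecular identifier, so intervals cover counting error only.

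Regions of 4 or more proteins, the highest peak of each list in each window, and all Mi2, OCAB and OCT2 peaks where a window had 3 or fewer are given with positions. The loci and lists were chosen with earlier results of these data known. Alternatives were a p-value limit of 1e-10, 8-fold over input, 4000 peaks per list, a 200 bp merging gap, centres within 100 bp, and other rankings.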

Additional observations from a re-analysis of the deposited data

How the results depend on the processing

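At each locus, peaks, regions and regions of 4 or more proteins stayed within 1.5 times of their counts under the p-value limit of 1e-10. So did peaks under the centre rule for windows, and both kinds of region under the 200 bp merging gap. The p-value limit could change little outside the HDAC2 list. AIOLOS, MTA2, Mi2 and OCAB had no peak above it, and IKAROS and OCT2 had none above 8.92e-10. The unchanged counts under that limit are therefore not read as stability. At 8-fold over input, BCL2L11 had 3 merged regions and BCL2 had 0 regions with 4 or more proteins. A limit of 4000 peaks cuts the lists unequally, since OCAB has 4440 peaks in all and IKAROS 53948. MCL1 holds peaks of the longest lists alone (IKAROS, AIOLOS and MTA2), which lose the largest share. With the 4000 highest peaks of each list, 5 peaks in 2 regions were left at BCL2 and 16 in 4 at BCL2L1. At MCL1 0 in 0 were left and at BCL2L11 1 in 1, an OCAB peak. BCL2 then had 1 region of 4 or more proteins. That was region 7. BCL2 also had 1 such region, but region 14, with centres within 100 bp of the highest-ranked peak and, in a setting chosen after seeing the data, without the HDAC2 list. Neither BCL2 region thus kept 4 or more proteins in every setting. BCL2L1 had 2 or 3 such regions in every setting tried. Ranked by fold over input, the BCL2L1 median rank was 61.9%. No paired analysis was possible because each antibody has 1 library. Low peaks rest on 14 to 24 tags, so a protein without a peak at a locus may be bound below what these depths show.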
